A study of Mus musculus with 6 samples.

Results

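The cytosolic ribosomal proteins are the protein parts of the ribosome that works outside the mitochondrion. They were followed here through 47 mouse genes, 24 of the large subunit (Rpl genes) and 23 of the small subunit (Rps genes), out of 18193 genes that had a probe set carrying a single gene symbol. A probe set is a group of short array probes designed against 1 transcript, and each gene was represented by the one with the brightest mean over all 6 arrays. The rule for members uses the symbol alone, taking genes named Rpl or Rps with a number, or Rpsa, and leaving out pseudogenes and the Rps6 kinases. The 47 genes were covered by 103 of the 45101 probe sets.

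RNA came from posterior eye segments of mouse embryos at 15.5 days post coitum, the front of each eye having been dissected off. The samples were 3 Oa1-/- pools and 3 WT pools, each made from the eyes of 6 embryos of 1 dam, so 6 dams were used and a replicate is a litter pool. The Oa1-/- mice lack Oa1 (Gpr143), a melanosomal receptor of pigment cells whose loss causes ocular albinism in people. Not given in the sources used here are the mouse strain, how much of the gene was deleted, and whether embryos were male or female. Each pool was hybridised to 1 Affymetrix Mouse 430 2.0 array, and the values are MAS5 signals, which are linear brightness values.

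Each ribosome is built from ribosomal RNA and a single copy of nearly every ribosomal protein, and cells make these proteins in matched amounts. Their mRNAs are among the most abundant in growing tissue, and they begin with a C followed by a run of pyrimidines (the TOP motif), through which mTOR signalling controls their translation. Mutations in ribosomal protein genes cause Diamond-Blackfan anaemia in people and, in mice, dark skin, white belly spots and short tails, so the family is also known from pigment and eye development.

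The targeted gene matched the labels on every array. Gpr143 had signals of 28.3, 39.1 and 6.02 in the Oa1-/- pools, against 250, 257 and 246 in the WT pools. The log2 difference, Oa1-/- minus WT on the log2(signal + 16) scale, was -2.82 (SE 0.34), with an unadjusted limma p of 2.35e-05 and an adjusted p of 0.318. Over all 27029 probe sets tested, none had an adjusted p below 0.05 and the lowest adjusted p was 0.278. Markers of the retina, pigment epithelium and lens were present in all pools: Pax6 lay between 10026 and 11541, Pmel between 7795 and 10794 and Cryaa between 19548 and 24690. The Y-linked genes set 1 array apart, WT replicate 3, where Eif2s3y, Kdm5d and Uty had signals of 9.26, 13.5 and 14.4. That pool thus gave almost no signal from male embryos. On the other arrays Eif2s3y lay between 406 and 805. The sex-linked gene Xist was highest on WT replicate 3, at 14195, against 6737 to 12721 elsewhere. The mean of Eif2s3y was 632 in Oa1-/- and 372 in WT, and the part of embryo sex in the differences between genotypes was not tested.

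Most ribosomal protein probe sets were at the bright end of these arrays. For 34 of the 47 members the mean signal over 6 arrays was 8091 or more, at or above the 98.6th percentile of all probe sets, and the highest mean was 27210, on arrays whose brightest value was 30680. The 3 brightest members were Rps29, a small zinc-binding protein, Rpl38, a large subunit protein whose loss causes the mouse Tail-short phenotype, and Rps3a1. Rps29 had signals of 27214, 26353 and 28490 in the Oa1-/- pools and 25103, 26302 and 29798 in the WT pools. Rpl38 had 27377, 26305 and 25629 in the Oa1-/- pools and 24408, 25209 and 28542 in the WT pools. In both genes WT replicate 1 was the lowest array and WT replicate 3 the highest, and the groups overlapped. Signals depend on the probes as well as on the RNA, so they were not used to order the genes by abundance.

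The other 13 members had mean signals under 5000, and 9 of these 13 had a brighter probe set annotated to their symbol together with other symbols, which was not used to measure them. Rpl3l, a muscle-restricted relative of Rpl3, had signals of 16.3, 2.05 and 6.16 in the Oa1-/- pools and 2.93, 1.51 and 4.45 in the WT pools. Rps16 had 1.92, 2.05 and 6.02 in the Oa1-/- pools and 0.859, 2.29 and 0.894 in the WT pools. These 2 genes lay below the low-signal filter, a mean signal of 66.0, and were not tested. For Rps16 the value belongs to its only single-symbol probe set, and nothing follows from it about the gene. The remaining 45 members, 23 of the large and 22 of the small subunit, were tested.

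**Figure D1:**
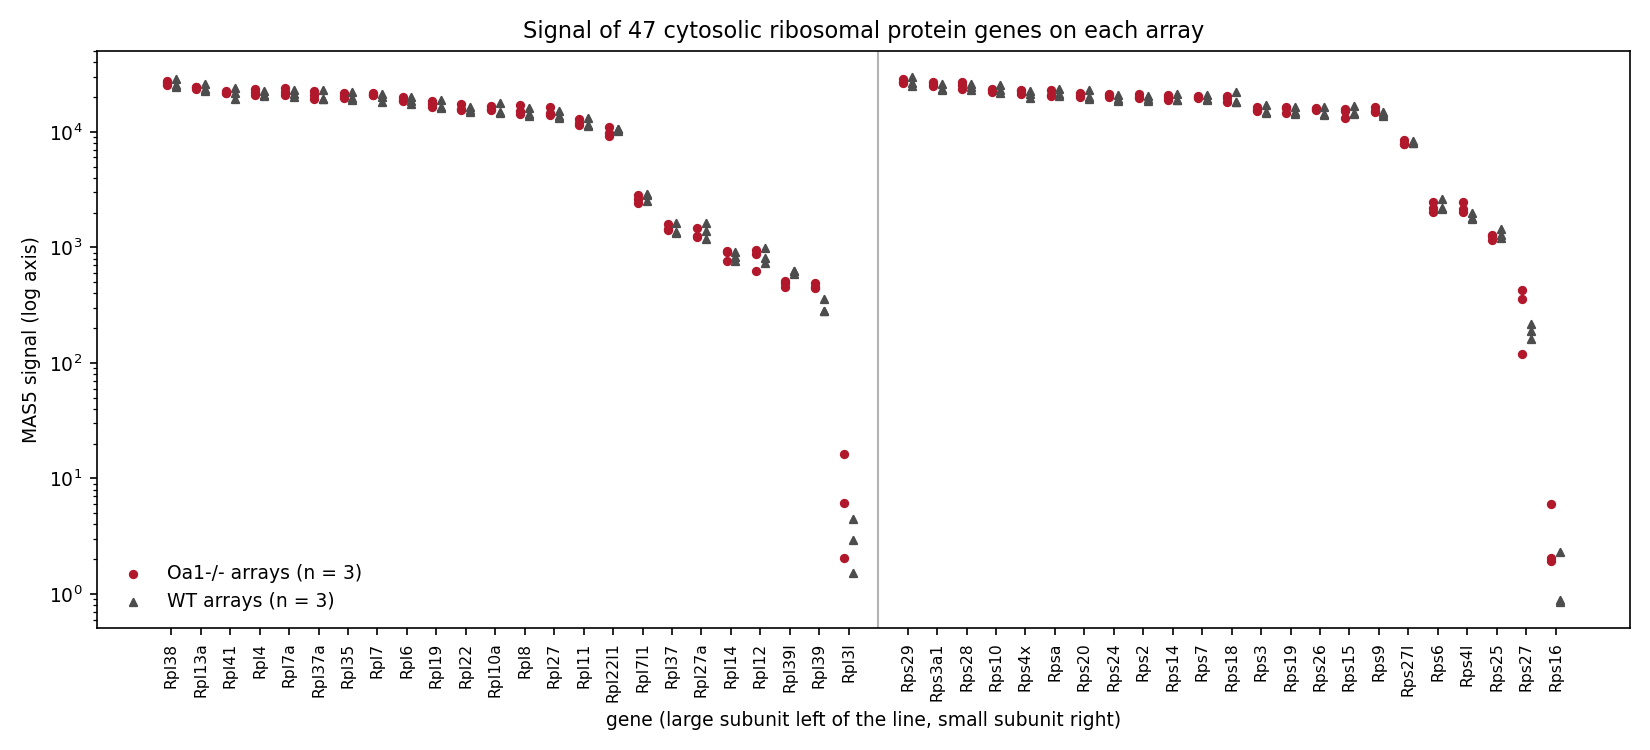
Signal of the brightest probe set of each of the 47 ribosomal protein genes on each array, with 1 column per gene and a logarithmic signal axis. Symbols separate the 3 Oa1-/- pools from the 3 WT pools. Most genes have means of 8091 or more with the 6 arrays close together, while Rps16 and Rpl3l lie below the filter of 66.0 and Rps27 shows the widest spread among the members tested.

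The start regions of the genes carried letters known from ribosomal protein promoters more often than other promoters did. Promoters from RefSeq (GRCm38.p6), 250 bases before to 50 after the annotated start, were found for 41 of the 47 members, 49 promoters in all. CCGGAAG, the core bound by ETS factors, was present on either strand in 40.82% of member promoters, against 8.86% of all 32851 promoters and 11.56% of those of protein-coding genes. CTTTCC, a pyrimidine-rich stretch, was present on either strand in 44.9% of member promoters against 26.56% of all promoters, and CCATCTT, the YY1 core, in 16.33% against 6.34%. The annotated first base was a C followed by 4 pyrimidines in 14.29% of member promoters and in 2.51% of all promoters. The subunits differed little in these shares, with CCGGAAG in 38.46% of large and 43.48% of small subunit promoters. Both strands were searched, matches of different motifs that overlap were each counted, and the shares are descriptions that say nothing of binding in the eye.

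The start regions of 5 members described below are printed from the gene's own strand, 120 bases before to 20 after the annotated start, with the motif matches in capitals: Rpl38 (chr11:114668460-114668599, plus strand), Rps3a1 (chr3:86142649-86142788, minus strand), Rps27 (chr3:90213629-90213768, minus strand), Rpl39 (chrX:37085203-37085342, minus strand) and Rpl39l (chr16:10170108-10170247, plus strand), all in GRCm38.p6. They were chosen to show such matches in 2 of the brightest members and in Rps27, and to set the pair Rpl39 and Rpl39l side by side.
Rpl38: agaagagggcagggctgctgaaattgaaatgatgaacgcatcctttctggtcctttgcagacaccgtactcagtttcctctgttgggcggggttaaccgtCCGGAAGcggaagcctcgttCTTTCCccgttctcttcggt
Rps3a1: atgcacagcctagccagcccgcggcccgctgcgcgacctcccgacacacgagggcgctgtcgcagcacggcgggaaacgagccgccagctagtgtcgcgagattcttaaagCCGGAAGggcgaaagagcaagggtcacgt
Rps27: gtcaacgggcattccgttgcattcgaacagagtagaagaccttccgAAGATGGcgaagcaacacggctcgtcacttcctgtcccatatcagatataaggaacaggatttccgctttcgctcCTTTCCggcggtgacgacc
Rpl39: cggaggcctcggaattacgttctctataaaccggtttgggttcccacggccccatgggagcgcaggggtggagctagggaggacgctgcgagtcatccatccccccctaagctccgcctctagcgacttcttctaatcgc
Rpl39l: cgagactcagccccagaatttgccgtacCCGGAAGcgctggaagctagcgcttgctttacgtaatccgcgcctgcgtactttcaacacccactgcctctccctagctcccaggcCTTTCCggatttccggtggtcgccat
In Rpl38 the stretch CTTTCC begins at the annotated start, so that the transcript opens as a TOP mRNA does, with CCGGAAG just upstream. In Rps27 the start base is a C that CTTTCC follows directly. Rps3a1 has CCGGAAG a few bases before its start. Rpl39l carries both CCGGAAG and, just before the start, CTTTCC, while the printed stretch of Rpl39 holds none of the 3 motifs, its only CCGGAAG match lying downstream of that stretch on the other strand.

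No ribosomal protein gene passed the test between Oa1-/- and WT eyes after adjustment. Of the 45 members tested, 0 had an adjusted p below 0.05 (limma, Benjamini-Hochberg over all probe sets), as for 0% of all genes, and the lowest adjusted p of a member was 0.985. Without adjustment 3 of 45 (6.67%) had a p below 0.05, Rpl39 and Rps4l higher and Rpl39l lower in Oa1-/-. The same share of all 12885 genes was 3.66% (1.68% higher and 1.98% lower), and of the 645 genes of the brightest 5% it was 3.1%. The Oa1-/- and WT values did not overlap in 4 of the 45 members, Rpl39, Rps4l and Rps9 on the higher side and Rpl39l on the lower, which is 8.89% beside 10.8% of all genes (5.47% higher and 5.29% lower) and 8.37% of the brightest genes. The members' shares are thus near those of the rest of the array.

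The bright members had narrow intervals. For fitted values, in which the added 16 shrinks differences of dim probe sets, the 95% confidence interval lay within 1.5-fold either way for 43 of 45 members. The exceptions were Rpl39, with an interval up to 0.88, and Rps27, with one from -0.45 to 1.39. The intervals of the 34 bright members lay between -0.28 and 0.29 on the log2 scale. Among those 34 the log2 differences ran from -0.088 to 0.12, and the lowest unadjusted p was 0.124 (limma), for Rps9. The median SD between replicates of a group was 0.094 on the log2 scale for the bright members, 0.102 for the brightest genes and 0.151 for all genes. The 3 members with an unadjusted p below 0.05 all belonged to the 11 tested members with mean signals under 5000.

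Small differences above 0 were common among the members and among other bright genes, and their direction depended on how the arrays were scaled. The log2 difference was above 0 in 33 of 45 members (73.3%), against 50.8% of all genes and 70.7% of the brightest 5% of genes. After quantile normalization it was above 0 in 18 of 45 members and in 331 of the 645 brightest genes, and after median centring in 37 of 45 members and 535 of these genes. The median log2 difference was 0.032 over the members, 0.039 over the brightest genes and 0.0026 over all genes, and the quartiles of the members were -0.0028 and 0.069. After quantile normalization the medians were -0.0057 over the members, 0.0024 over the brightest genes and 0.012 over all genes. Large and small subunits gave nearly the same median, 0.032 over 23 large and 0.030 over 22 small subunit members, a difference of 0.0024, and after quantile normalization the medians were -0.0054 and -0.020. The median of all members is smaller than the spread of the arrays, since the SD between replicates of a group in the median deviation of the members was 0.080.

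**Figure D2:**
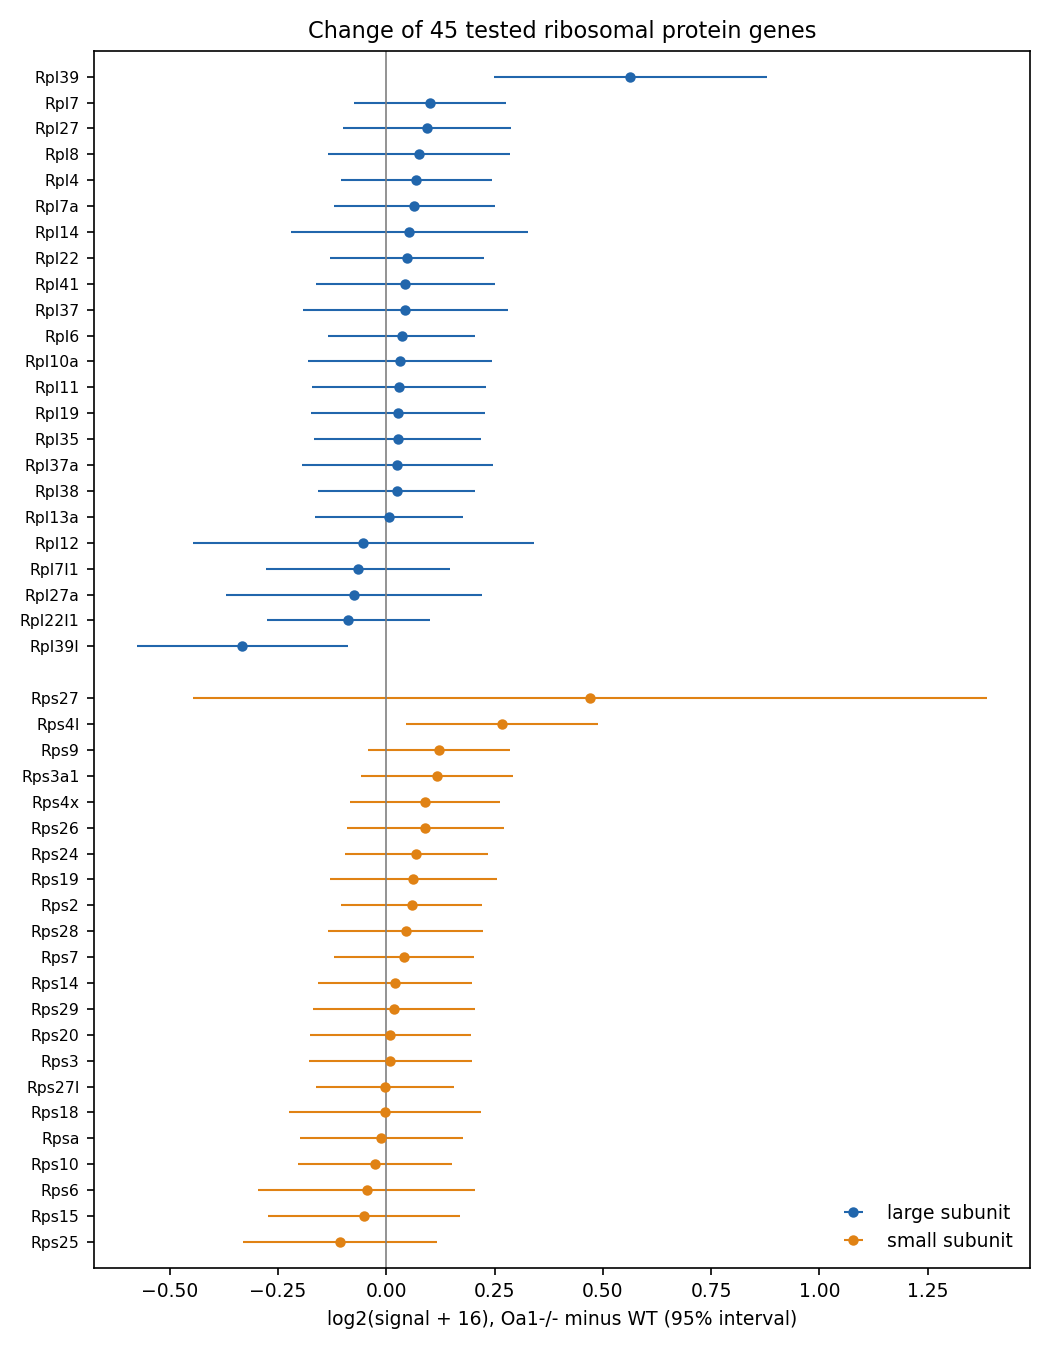
Log2 difference, Oa1-/- minus WT on the log2(signal + 16) scale, of the 45 tested ribosomal protein genes with 95% confidence intervals, large and small subunit separately. Most points lie between -0.1 and 0.1 with intervals that include 0; Rpl39 (0.56) and Rps4l (0.27) lie on the higher side, Rpl39l (-0.33) on the lower side, and Rps27 has the widest interval.

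Among large subunit members with log2 differences above 0, Rpl39, Rpl7 and Rpl27 had the smallest unadjusted p. Rpl7, which has a diverged copy in Rpl7l1, had signals of 21829, 20629 and 20678 in the Oa1-/- pools and 18096, 19867 and 21038 in the WT pools. Only WT replicate 3 reached the Oa1-/- values, and the log2 difference was 0.10 (SE 0.077), with an unadjusted limma p of 0.227. Rpl27, mutated in some patients with Diamond-Blackfan anaemia, had 16279, 14469 and 14039 in the Oa1-/- pools and 13726, 13180 and 15028 in the WT pools, a log2 difference of 0.094 (SE 0.085). On the lower side Rpl27a, the gene of the mouse sooty foot ataxia mutant, had 1238, 1460 and 1256 in the Oa1-/- pools and 1187, 1374 and 1625 in the WT pools, a log2 difference of -0.074. The groups overlapped in both genes. A brighter probe set annotated to Rpl27a beside other symbols had a log2 difference of the other sign, 0.037. Rpl11, which binds 5S ribosomal RNA and can restrain the p53 inhibitor Mdm2, had 12951, 11445 and 12030 in the Oa1-/- pools and 11112, 11464 and 13153 in the WT pools, a log2 difference of 0.030 that was -0.0038 after quantile normalization. Rpl41, a very small basic protein of the subunit interface, differed by 0.044, or by -0.0028 after quantile normalization. The 12 large subunit members not described singly (Rpl4, Rpl6, Rpl7a, Rpl8, Rpl10a, Rpl12, Rpl13a, Rpl14, Rpl19, Rpl35, Rpl37 and Rpl37a) had log2 differences from -0.053 to 0.076, 11 of them above 0, and no unadjusted p below 0.389 (limma). The 1 below 0 was Rpl12, read by a dim probe set with a mean signal of 828. The brightest probe set annotated to Rpl12 beside other symbols had a log2 difference of 0.14.

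Among small subunit members with log2 differences above 0, Rps4l, Rps9 and Rps3a1 had the smallest unadjusted p, while Rps27 had the largest difference (0.47) with a wide interval. Rps9, a protein that binds early in small subunit assembly, had signals of 16456, 14862 and 15170 in the Oa1-/- pools and 13713, 14196 and 14778 in the WT pools. The lowest Oa1-/- array lay just above the highest WT array, and the log2 difference was 0.12 (SE 0.071), with an unadjusted limma p of 0.124. Rps3a1 had 27065, 26117 and 24996 in the Oa1-/- pools and 22787, 23287 and 26091 in the WT pools, a log2 difference of 0.12 (SE 0.077). Here WT replicate 3 lay within the Oa1-/- range and the other WT arrays below it. On the lower side Rps25, which assists initiation at some internal entry sites, had 1243, 1272 and 1148 in the Oa1-/- pools and 1449, 1291 and 1214 in the WT pools, a log2 difference of -0.11 (SE 0.098). Rps15 differed by -0.051. Rps6, the substrate of the S6 kinases that reports mTOR activity, had 2483, 2037 and 2194 in the Oa1-/- pools and 2187, 2141 and 2608 in the WT pools, a log2 difference of -0.046. All 3 of these genes overlapped between groups. Rps25 and Rps6 were read by dim probe sets, with mean signals of 1270 and 2275. The brightest probe set annotated to Rps6 beside other symbols had a log2 difference of the other sign. The 7 small subunit members not described singly (Rps2, Rps3, Rps14, Rps18, Rps26, Rps28 and Rpsa) had log2 differences from -0.012 to 0.090, 5 of them above 0.

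Rpl39 had the smallest unadjusted p of any member. It encodes a short protein that lines the exit tunnel through which new polypeptides leave the ribosome, and the gene is X-linked. Its signals were 442, 490 and 451 in the Oa1-/- pools, against 283, 284 and 358 in the WT pools. All Oa1-/- arrays lay above all WT arrays, and WT replicate 3 was the closest to them. The means were 461 ± 25.3 in Oa1-/- and 308 ± 43.2 in WT (SD, n = 3 each), a log2 difference of 0.56 (SE 0.14, 95% interval 0.25 to 0.88), with an unadjusted limma p of 0.00316 and an adjusted p of 0.985. A far brighter probe set annotated to Rpl39 beside other symbols gave values close to each other in the groups. It had 21484, 22926 and 21752 in the Oa1-/- pools and 21377, 23969 and 21338 in the WT pools, a log2 difference of -0.0098 with an unadjusted limma p of 0.898. The 2 probe sets thus disagree, and which of them follows the Rpl39 mRNA was not tested.

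Rpl39l, the autosomal copy of Rpl39 that is known mainly from male germ cells, had lower signals in Oa1-/- eyes. It had 507, 491 and 450 in the Oa1-/- pools and 585, 628 and 622 in the WT pools, so that each Oa1-/- value was under the lowest WT value. The means were 483 ± 29.1 in Oa1-/- and 612 ± 23.3 in WT (SD, n = 3 each), and the log2 difference was -0.33 (SE 0.11), with an unadjusted limma p of 0.0134 and an adjusted p of 0.985. Rps4l, an autosomal relative of the X-linked Rps4x, had 2475, 2167 and 2041 in the Oa1-/- pools and 1965, 1758 and 1809 in the WT pools. Its groups did not overlap, though the lowest Oa1-/- array lay close to WT replicate 1, and the log2 difference was 0.27 (SE 0.097), with an unadjusted limma p of 0.0236 and an adjusted p of 0.985. Without WT replicate 2 the unadjusted p of Rps4l was 0.0819, without WT replicate 3 it was 0.0525, and without Oa1-/- replicate 1 it was 0.0825. Rps4x itself had 23061, 21266 and 22589 in the Oa1-/- pools and 19531, 21059 and 22352 in the WT pools, a log2 difference of 0.090 (SE 0.076).

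The duplicated genes and their parents were described as 2 lists. Of the duplicated or tissue-restricted genes, 5 were tested, of which 1 (Rps4l) had a log2 difference above 0 and 4 below 0, with a median of -0.066, and after median centring 2 were above and 3 below. All 5 tested parents had log2 differences above 0, also after quantile normalization and median centring, with a median of 0.10. Over all genes the median was 0.0026 and 50.8% were above 0, beside 73.3% of the members and 70.7% of the brightest genes. Of these parents, Rpl39 and Rps27 were read by dim probe sets, with mean signals of 385 and 245. Brighter probe sets annotated to them beside other symbols had differences near 0 (-0.0098 for Rpl39), so the count depends on the probe set chosen. In the pair Rpl22 and Rpl22l1, whose products are closely related RNA-binding proteins, Rpl22 differed by 0.048 and Rpl22l1 by -0.088. Rpl22l1 had 10918, 9673 and 9129 in the Oa1-/- pools and 10652, 10211 and 10636 in the WT pools, so that Oa1-/- replicate 1 was the highest array of all and the other Oa1-/- arrays the lowest. In the pair Rpl7 and Rpl7l1 the values were 0.10 and -0.066, and the 3 tested probe sets of Rpl7l1 were all below 0, between -0.21 and -0.066. Rps27l, a p53-induced relative of Rps27, differed by -0.0028, with an interval from -0.16 to 0.16, and by 0.028 after median centring.

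Rps27 was the most uneven member. Its signals were 119, 359 and 424 in the Oa1-/- pools and 216, 190 and 159 in the WT pools. Oa1-/- replicate 1 was the lowest of all 6 arrays while the other 2 Oa1-/- arrays were the highest. The log2 difference was 0.47 with a 95% interval from -0.45 to 1.39, and it was 1.00 without Oa1-/- replicate 1 and 0.15 without Oa1-/- replicate 3. A brighter probe set annotated to Rps27 beside other symbols had a log2 difference of 0.013.

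**Figure D3:**
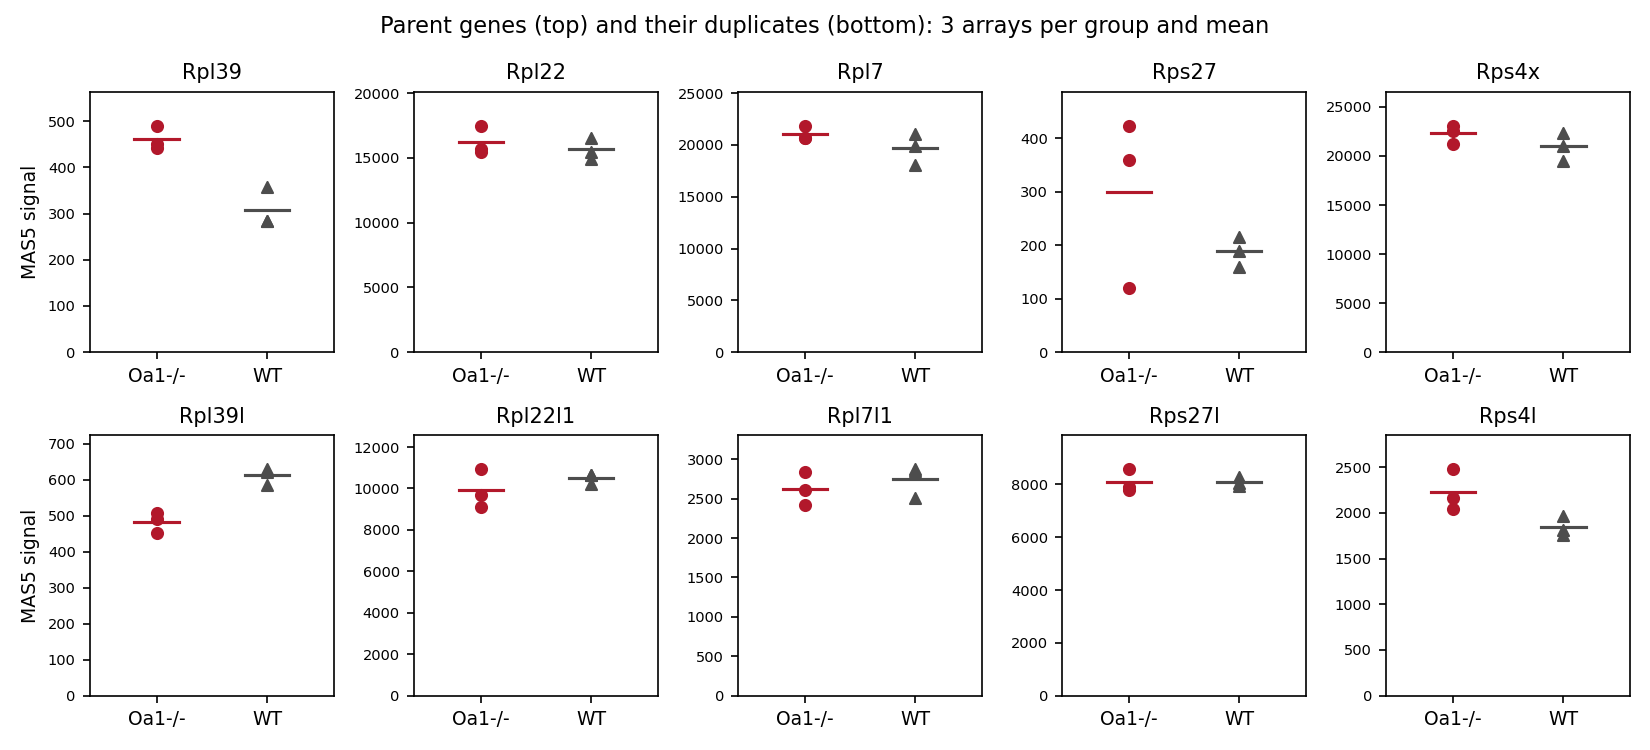
Signals of the ribosomal protein genes with a duplicated copy, parent above copy, on each array, with Oa1-/- pools to the left of WT pools in each panel. Rpl39 is higher and Rpl39l lower in every Oa1-/- pool than in every WT pool, while Rps27 is split among the Oa1-/- pools.

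Members known from mouse mutants with changes of pigment, tail or eye also passed no test. Of this list, Rps19 and Rps20, the genes of dark skin mutants, Rps7, Rpl38 and Rpl27a were tested, 4 with log2 differences above 0 and 1 below 0 (median 0.024), and none with an unadjusted p below 0.05. The 1 below 0 was Rpl27a, for which a brighter probe set annotated to it beside other symbols gave 0.037. After quantile normalization 1 of the 5 genes was above 0 and 4 below. Rps19, also the gene most often mutated in Diamond-Blackfan anaemia, had 16498, 16117 and 14617 in the Oa1-/- pools and 14133, 14710 and 16408 in the WT pools, a log2 difference of 0.063 (SE 0.084). Its groups overlapped widely. Rps20 had a log2 difference of 0.0092 and Rps7 one of 0.041. Over the 11 tested members known from Diamond-Blackfan anaemia, 10 differences were above 0 and 1 below, with a median of 0.045 and no unadjusted p below 0.05, and after quantile normalization 5 were above and 6 below.

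For the members the arrays of 1 genotype differed among themselves by more than the genotypes did. The median deviation of the members from their mean over 6 arrays, on the log2 scale, was 0.089, 0.0023 and -0.0087 in the Oa1-/- pools and -0.099, -0.054 and 0.093 in the WT pools. WT replicate 3 and Oa1-/- replicate 1 were thus the high arrays, 1 of each genotype, and WT replicate 1 the low one. WT replicate 3 gave the highest signal of 21 members and Oa1-/- replicate 1 that of 17, while WT replicate 1 gave the lowest signal of 26 and WT replicate 3 of 0. Large and small subunits lay close on each array: their medians differed by 0.026, 0.011 and -0.043 in the Oa1-/- pools and by 0.00025, -0.0073 and 0.023 in the WT pools. The members' share of the summed array signal was 2.12, 2.03 and 2.04% in the Oa1-/- pools and 1.95, 1.98 and 2.16% in the WT pools.

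Bright genes in general followed the same arrays. Over the brightest 5% of genes the median deviation was 0.089, 0.0024 and -0.024 in the Oa1-/- pools and -0.081, -0.030 and 0.058 in the WT pools, and 291 of these 645 genes had their lowest signal on WT replicate 1. Other measures also set these arrays apart. The summed signal of the 6 measured of 9 erythroid marker genes, led by the embryonic globin gene Hbb-y, was 7076, 9084 and 10431 in the Oa1-/- pools and 23587, 9264 and 3776 in the WT pools. Of these, 5 passed the filter, Hba-a1 did not, and none was listed at 0. The summed signal of 11 of 11 lens markers was 131121 to 144114 in the Oa1-/- pools, and 104557 in WT replicate 1 against 144636 and 146538 in the other WT pools. The summed signal of 10 of 10 muscle markers was 18798, 8015 and 12572 in the Oa1-/- pools and 6284, 13485 and 17967 in the WT pools, highest on Oa1-/- replicate 1 and WT replicate 3 and lowest on WT replicate 1, as for the members. Of 12 tested markers of young retinal neurons, 10 had log2 differences above 0, and 4 of these an unadjusted limma p below 0.05, with summed signals of 52459 to 58843 in the Oa1-/- pools and 47281 to 51701 in the WT pools. Of 12 tested markers of the mesenchyme around the eye, 10 were below 0, and 4 of these had an unadjusted limma p below 0.05, with sums of 78798 to 83701 in the Oa1-/- pools and 75853 to 92353 in the WT pools. Over all genes 50.8% were above 0. Such an unadjusted p was found in 1.68% of all genes on the higher side and 1.98% on the lower. Other lists also leaned to 1 side: 11 of 11 lens, 9 of 10 muscle and 5 of 6 endothelial markers were above 0. All 5 tested erythroid markers were below 0, 1 of them with an unadjusted limma p below 0.05. No marker on these lists had an adjusted p below 0.05. With the Y-linked signal as a covariate the median log2 difference of the members was 0.10. This covariate mainly set WT replicate 3 apart, the array with almost no Y-linked signal. The part of blood, lens, muscle, neurons or mesenchyme in the ribosomal protein signals was not tested, and in bulk tissue fewer cells of a type and less RNA per cell cannot be told apart. Leaving out WT replicate 1 put the median of the members at -0.0075, and leaving out WT replicate 3 put it at 0.098.

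**Figure D4:**
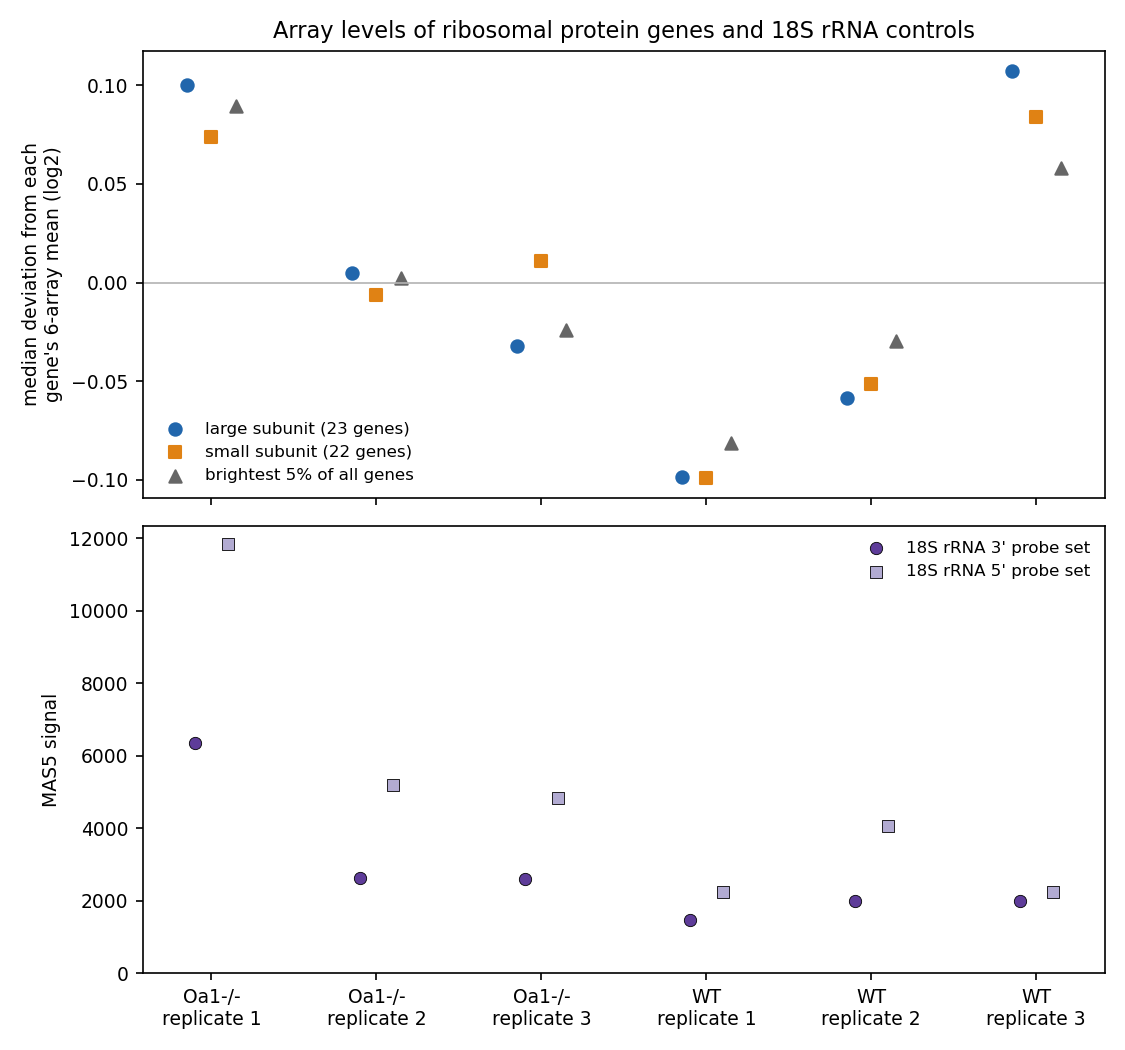
Median deviation, on the log2(signal + 16) scale, of large subunit members, small subunit members and the brightest 5% of genes from each gene's mean over the 6 arrays, by array, Oa1-/- pools on the left. Oa1-/- replicate 1 and WT replicate 3 lie highest and WT replicate 1 lowest in all 3 sets.

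Ribosomal RNA is the other part of the ribosome, and the array holds control probe sets against 18S ribosomal RNA. Whether their signals follow the amount of ribosomal RNA in the eyes was not tested. The control probe set at the 3' end of 18S ribosomal RNA had signals of 6348, 2618 and 2608 in the Oa1-/- pools and 1476, 1988 and 1988 in the WT pools, and the one at the 5' end had 11826, 5201 and 4828 in the Oa1-/- pools and 2227, 4049 and 2237 in the WT pools. In both, every Oa1-/- array lay above every WT array, with Oa1-/- replicate 1 far above the rest. The two-sided exact permutation p was 0.1 for each, the smallest that 3 samples against 3 can give. The probe set in the middle of 18S overlapped between groups, with 6576, 2826 and 1968 in the Oa1-/- pools and 1371, 2397 and 1731 in the WT pools. Such a separation was not limited to 18S. The 5' control probe set of Gapdh had 21474.5, 18981.3 and 19579.2 in the Oa1-/- pools. In the WT pools it had 16993.7, 18063.7 and 18135.5. The 3'/5' signal ratios of the Gapdh controls, a sign of RNA integrity, were 0.833, 0.841 and 0.798 in the Oa1-/- pools and 0.812, 0.823 and 0.985 in the WT pools. The part of the 18S signal in the ribosomal protein signals was not tested.

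Several members were read by more than 1 probe set, and these often disagreed in sign. Of 21 members with over 1 tested probe set, 15 had log2 differences of both signs, 5 had all above 0 and 1, Rpl7l1, had all below 0. Rps24, a Diamond-Blackfan anaemia gene, had the widest range, from -0.32 to 0.16 over 5 probe sets. Its brightest gave 21146, 19903 and 20780 in the Oa1-/- pools and 18618, 19393 and 20985 in the WT pools, a log2 difference of 0.069, while its dimmest tested one gave 475, 703 and 682 in the Oa1-/- pools and 886, 729 and 691 in the WT pools. Rpl41 ranged from -0.14 to 0.18 over 4 probe sets. Rps10 ranged from -0.19 to 0.089 over 6 probe sets, and one of them had 4840, 13847 and 3056 in the Oa1-/- pools against 6757, 5454 and 7382 in the WT pools, so that Oa1-/- replicate 2 stood far above the other arrays. Over all 94 tested probe sets of the members, 64 differences were above 0 and 30 below, with a median of 0.039, and 3 had an unadjusted p below 0.05, a share of 4.11% being found over all probe sets. After quantile normalization 42 of the 94 were above 0 and 52 below.

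Many ribosomal protein genes have processed pseudogenes, and 43 of the 103 probe sets carry a suffix (_x_at or _s_at) that marks probes shared with other transcripts. For those members the signals of near-identical copies cannot be separated. A further 109 probe sets were annotated to a ribosomal protein symbol together with others, and 101 of them were tested. Their differences were above 0 in 88 and below 0 in 13, and after quantile normalization in 52 and 49. The median was 0.045, and 2 had an unadjusted p below 0.05. One of these was annotated to Rpl3 among others, with 229, 290 and 316 in the Oa1-/- pools against 642, 392 and 385 in the WT pools and a log2 difference of -0.71. Here the groups did not overlap, with WT replicate 1 far above the rest, yet the brightest probe set annotated to Rpl3 had a log2 difference of -0.0086.

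Other parts of the ribosome and of translation were counted in the same way. Rplp0 and Rplp2 of the ribosomal stalk and Fau, the precursor of a small subunit protein, lie outside the symbol rule and had log2 differences of 0.0089, 0.041 and 0.015, all 3 of them below 0 after quantile normalization. Of 16 tested translation factors and other TOP mRNAs, 11 had log2 differences above 0 and 5 below, with a median of 0.077 and no unadjusted p below 0.05. Of 15 tested regulators of TOP mRNAs and of S6 phosphorylation, such as Mtor and Larp1, 8 were above 0 and 7 below, with a median of 0.010. Of 51 tested ribosome biogenesis genes, which act in the nucleolus on ribosomal RNA, 16 were above 0 and 35 below, with a median of -0.029. After quantile normalization 21 were above and 30 below, and after median centring 26 above and 25 below. In this list 1 gene on each side had an unadjusted p below 0.05, Imp3 (0.25) and Rrp9 (-0.76), and none an adjusted p below 0.05 (limma). The 76 tested mitochondrial ribosomal protein genes, a list taken by symbol, had 59 differences above 0 and 17 below, beside 50.8% above 0 over all genes. Their median was 0.064, and 1 had an unadjusted limma p below 0.05, on the lower side. After quantile normalization 58 of them were above 0 and 18 below, with a median of 0.063.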

How the data were processed

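The deposited table holds linear signal intensities that the authors made with MAS5, per the submitters' processing notes; its version and its detection calls were not used here. The trimmed mean was 500.002 on all 6 deposited arrays after leaving out 2% at each end, which shows that the arrays were scaled alike before deposit. Probe sets were named through the platform annotation, in which 34945 probe sets have 1 symbol, 932 have more and 9160 are unnamed; all 47 members matched a RefSeq table (GRCm38.p6).

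From these, log2(signal + 16) was computed with no further normalization. Control probe sets and those with a mean at or below the 40th percentile (66.0) were left out, which kept 27029 probe sets and, with the brightest probe set per gene, 12885 genes. In R 4.3.3, lmFit and eBayes (trend on mean intensity) of limma 3.58.1 fitted Oa1-/- minus WT over 6 arrays, two-sided, with Benjamini-Hochberg adjustment over all probe sets kept and a threshold of 0.05. The model was tested on simulated data. Single values had exact permutation tests. The number of arrays, 3 per genotype, limits the precision, and differences of dim probe sets are understated by the added 16.

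Genes named singly were the targeted gene, per subunit and direction the 3 members with the smallest unadjusted p, the 3 brightest and 3 dimmest, those on the X chromosome, the 3 with the widest disagreement between probe sets, duplicated genes and their parents, those with mouse mutants, Rpl11 of the 5S particle, and ribosome parts outside the symbol rule. Values of other genes are given only where a sentence on arrays, probe sets or lists rests on them. The member rule uses symbols and mean signal, not a difference between genotypes, but the family and the lists were chosen with earlier results of these data known. Alternatives changed the added constant, filter, normalization, variance model, choice of probe set, covariates and arrays.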

Additional observations from a re-analysis of the deposited data

Results flagged for a closer look

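The 18S ribosomal RNA control probe sets lie outside the comparison of ribosomal protein genes, and the means of the outer ones were higher in Oa1-/- eyes than in WT eyes. The 3' probe set had a mean signal of 3858 in Oa1-/- and 1817 in WT, and the 5' probe set one of 7285 in Oa1-/- and 2838 in WT. Oa1-/- replicate 1 had the highest signal in both. They were flagged because every Oa1-/- array lay above every WT array. With 3 arrays against 3 that alone fixes the exact two-sided permutation p at 0.1, so the p adds no support. The middle probe set, whose groups overlapped, was not flagged. Its means were 3790 in Oa1-/- and 1833 in WT, with an exact two-sided permutation p of 0.2. Only the 18S controls were searched by this rule. The 5' control of Gapdh also had every Oa1-/- array above every WT array.

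A probe set annotated to Rps6 together with other symbols, and so not used to measure a member, had signals of 2516, 2396 and 2696 in the Oa1-/- pools and 1842, 2113 and 2109 in the WT pools. The log2 difference was 0.33, with an unadjusted limma p of 0.00622 and an adjusted p of 0.985. This probe set was picked from the 101 tested ones of its kind because all Oa1-/- arrays lay above all WT arrays. An unadjusted limma p below 0.05 was also required, so neither feature is separate support. Such a p was found in 1.98% of the 101, beside 4.11% of all probe sets. The brightest probe set annotated to Rps6 beside other symbols had 25053, 24759 and 24353 in the Oa1-/- pools and 21273, 23956 and 25271 in the WT pools, a log2 difference of 0.077.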

How the results depend on the processing

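Over 30 named genes, 506 of 565 alternative fits kept the direction and the side of the threshold, 58 had the opposite direction and 1 passed the threshold, Gpr143 under median centring (-2.79, limma adjusted p 0.0012). Probe sets called were 2 under median centring, 2 with array weights and 0 to 0 with 1 array left out. Members with an unadjusted p below 0.05 were 1 under median centring (2.22%, beside 1.4% of all genes), 5 with array weights (11.1% beside 10.8%), 7 with the Y-linked signal as a covariate (15.6% beside 5.1%, and 9.3% of the brightest genes), and 2 (without WT replicate 2) to 4 (without WT replicate 3) with 1 array left out. The median over all members was -0.0057 after quantile normalization, 0.10 with the Y-linked covariate, and -0.0075 (without WT replicate 1) to 0.098 (without WT replicate 3) with 1 array left out. The Y-linked covariate was the mean log2 value of Eif2s3y, Kdm5d and Uty. It was far lower on WT replicate 3 than elsewhere, so embryo sex and other traits of that array are hard to tell apart in this fit.

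All log2 differences of named genes that took the other sign were small apart from dimmer probe sets; the cause was not tested. After quantile normalization they were -0.0038 for Rpl11, -0.0054 for Rpl38, -0.0028 for Rpl41, -0.054 for Rps20, -0.034 for Rps29, -0.0040 for Rps7, -0.028 for Fau, -0.046 for Rplp0 and -0.014 for Rplp2. Under median centring they were 0.0048 for Rps10 and 0.028 for Rps27l. With array weights they were 0.034 for Rpl27a, 0.0092 for Rps15, -0.0028 for Rps20, 0.064 for Rps27l and -0.053 for Rplp0. With the Y-linked covariate they were 0.044 for Rpl27a, 0.045 for Rps10, 0.036 for Rps15, 0.010 for Rps27l and 0.059 for Rps6. With a gene's probe sets averaged they were 0.0065 for Rps15, 0.019 for Rps27l and 0.031 for Rps6. Without probe sets ending in _x_at or _s_at, which left dimmer ones, they were -0.14 for Rpl41, -0.32 for Rps24 and -0.050 for Rps9. Without WT replicate 3 and Oa1-/- replicate 1 together, an alternative chosen after seeing the data, they were 0.083 for Rpl27a, 0.024 for Rps10 and 0.041 for Rps27l. Allowing probe sets with several symbols, also chosen after seeing the data, gave a median of 0.035 over 70 symbols.

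With 1 array left out the ranges that crossed 0 were -0.018 to 0.10 for Rpl11, -0.0073 to 0.088 for Rpl22, -0.18 to 0.041 for Rpl27a, -0.021 to 0.091 for Rpl38, -0.040 to 0.13 for Rpl41, -0.082 to 0.037 for Rps10, -0.10 to 0.025 for Rps15, -0.039 to 0.079 for Rps20, -0.045 to 0.023 for Rps27l, -0.034 to 0.089 for Rps29, -0.12 to 0.043 for Rps6, -0.048 to 0.089 for Fau, -0.050 to 0.086 for Rplp0 and -0.023 to 0.12 for Rplp2.

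Samples with the same replicate number showed no shared deviation (correlations of -0.29, 0.16 and -0.23). The deviations of the 3 arrays of a group sum to 0, so these correlations depend on one another. They cannot decide whether the samples were handled in pairs. With the replicate number as a block 3 members (6.67%) had an unadjusted limma p below 0.05, beside 2.64% of all genes and 2.33% of the brightest genes. The median of the members in that fit was 0.032.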
